A study of Homo sapiens with 6 samples.

Results

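The 40 genes described here carry glucose from uptake to lactate, or answer to the hypoxia-inducible factors (HIFs). They are 24 glycolytic step genes, 12 HIF target genes and 4 HIF factor genes, which are HIF1A, EPAS1, ARNT and VHL. The members were named by symbol, and the TPM values (a length-corrected share of the library, scaled to sum to 1000000) of all transcripts of a gene were summed. They were 40 of 34500 genes with a matched transcript, and 35 of them were among the 11857 genes that passed a filter of at least 1 TPM in at least 3 libraries. RNA came from RPMI 8226, an established human multiple myeloma cell line, transduced with a lentivirus that carried either a hairpin against luciferase (shLuc, 3 libraries) or a hairpin against the histone deacetylase HDAC1 (shHDAC1, 3 libraries). Both groups were grown in 10% serum and selected in puromycin for 48 h, and no label names a hypoxia treatment. All 3 libraries of a group carry the same hairpin label, and no label says that the triplicates were made on different days. The p-values therefore measure the spread between these libraries.

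Glycolysis splits glucose into pyruvate in the cytosol and yields ATP without oxygen. Lactate dehydrogenase then turns pyruvate into lactate and returns NAD+ to the pathway, and monocarboxylate transporters move lactate across the membrane. HIF1A and EPAS1 are the oxygen-regulated subunits that pair with ARNT. When oxygen is present, the EGLN prolyl hydroxylases mark them and VHL directs them to degradation. HIF dimers bind a short DNA core, and many glycolytic genes are themselves HIF targets, so the lists overlap in biology. Multiple myeloma grows in a bone marrow that is poor in oxygen, and many myeloma lines turn glucose to lactate even in air.

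The HIF core, ACGTG or GCGTG, was looked for in the promoters, because it is what the 2 kinds of members could share in sequence. Each form was searched on both strands, and CACGTG, an E-box, holds ACGTG on both. RefSeq windows on GRCh38.p14, from 250 bases before to 50 bases after each start, were available for 34 of the 40 members, in 61 windows. The members without one were SLC2A3, PFKFB2, SLC16A1, BNIP3L, NDRG1 and VHL. ACGTG was in 24 of the 61 windows (39.3%), against 21.4% of all 35116 windows of the same length. The other form of the core, GCGTG, was in 39.3% of the members' windows and in 36.5% of all windows, and CACGTG in 13.1% and 7.26%. Counted by gene, ACGTG was in a window of 4 of 7 members called higher with shHDAC1, 2 of 3 called lower and 12 of 21 tested and not called, against 33.2% of tested genes and 24.9% of all genes with a window. A gene was counted if any of its windows held the motif. Members had 61 windows for 34 genes against 35116 for 27305 genes, and so more windows per gene in which to hold it. GCGTG by gene was in 58.8% of members, 59.3% of tested genes and 40.6% of all genes with a window. It was in a window of 5 of 7 members called higher, 2 of 3 called lower and 12 of 21 tested and not called. Of the called members with ACGTG, PFKFB3, PDK1 and LDHA had 2 listed starts each, and only 1 of these had ACGTG upstream. ALDOA had 3 listed starts, each with ACGTG upstream. The following 30-base stretches come from the 6 members that were called (the call is defined below with the test) and hold ACGTG upstream of a RefSeq start. For each member, a start with ACGTG upstream was chosen. Each is on the plus strand of GRCh38.p14, written 5′ to 3′, and capitals mark ACGTG on either strand.
PFKFB3, chr10:6202812-6202841, called higher: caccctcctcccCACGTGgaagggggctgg
ALDOA, chr16:30064373-30064402, called higher: tggcagggaggcCACGTGatccgagtcccc
GAPDH, chr12:6535171-6535200, called higher: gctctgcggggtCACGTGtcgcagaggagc
PDK3, chrX:24465212-24465241, called higher: tcgcgcgccgcgtACGTGcagcaaccgact
LDHA, chr11:18394470-18394499, called lower: gactcaCACGTGggttcccgCACGTccgcc
PDK1, chr2:172556060-172556089, called lower: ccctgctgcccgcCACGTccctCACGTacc
Genes on both sides of the comparison thus hold the same letters near a start, as do members that were not called. A match is a description of the sequence and says nothing of binding in these cells.

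A second pair of sequences shows how PKM, the pyruvate kinase gene, makes its forms. Pyruvate kinase carries out the last step of glycolysis, and the M1 and M2 forms differ by which of 2 neighbouring coding exons is kept in the mRNA. The M2 form is the usual one in tumour cells. Both exons lie on the minus strand of chromosome 15 (GRCh38, GENCODE 29), are 167 bases long and were read from annotated transcripts in the direction of the mRNA. They were the same at 105 bases (62.9%) and differed at 62, and capitals mark the differing bases.
PKM M1 exon, chr15:72203022-72203188: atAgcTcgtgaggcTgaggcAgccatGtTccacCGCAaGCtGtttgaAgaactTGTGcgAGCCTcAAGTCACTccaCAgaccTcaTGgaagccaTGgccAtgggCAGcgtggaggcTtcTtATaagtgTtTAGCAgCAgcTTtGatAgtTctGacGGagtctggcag
PKM M2 exon, chr15:72202454-72202620: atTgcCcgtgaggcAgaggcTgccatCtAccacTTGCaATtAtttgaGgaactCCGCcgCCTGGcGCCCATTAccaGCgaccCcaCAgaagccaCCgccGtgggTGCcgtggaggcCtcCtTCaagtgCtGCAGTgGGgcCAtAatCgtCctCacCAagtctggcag
Reads over these exons can be told apart by those bases, so TPM of transcripts that hold one or the other exon could be compared between the groups.

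HDAC1 itself was at 90.0, 85.0 and 88.9 TPM with shLuc, and with shHDAC1 at 31.8, 27.0 and 29.2 TPM. It fell by 1.56 ± 0.08 on the log2 scale (limma, adjusted p = 2.2e-06), so the labels held in every library. The libraries listed 173259 transcripts each and summed to 1000000 TPM, a unit that keeps no depth, and the correlation across genes of log2 values was 0.989 to 0.993 within groups and 0.971 to 0.974 between them. A gene was called at a limma p below 0.05 after Benjamini-Hochberg adjustment over all 11857 genes, and by that rule 2007 genes (16.9%) were higher and 1219 (10.3%) lower with shHDAC1. The higher share of the calls was 62.2%, but 42.2% with median centring of the libraries and 47.0% with quantile normalization. The groups did not overlap for 43.3% of genes, and the median log2 fold change over all genes was 0.07. Of 10 plasma cell markers, 9 were tested and all 9 were lower, with a summed level of 8644 ± 407 TPM with shLuc and 6587 ± 655 TPM with shHDAC1 (SD, n = 3), while SLAMF7 stayed below 1 TPM throughout. The 8 T and NK cell markers summed to between 43.0 and 53.5 TPM with shLuc and between 32.4 and 36.4 TPM with shHDAC1. Most of this was NCAM1, and CD3D, CD2 and NKG7 were at 0 in all libraries. NCAM1 was lower and CD8A higher with shHDAC1 (limma, adjusted p = 0.0062 and 0.034). The 8 myeloid markers summed to between 2.96 and 3.88 TPM with shLuc and between 6.91 and 11.4 TPM with shHDAC1, mostly ITGAM, with MPO and S100A8 at 0. The 7 epithelial and fibroblast markers summed to between 77.3 and 94.5 TPM, mostly EPCAM. Fewer cells of a kind and less RNA per cell cannot be told apart in such bulk libraries, and the part of the lower plasma cell markers in the results below was not tested.

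Among the 35 tested members, 7 rose, 5 fell and 23 were not called, and 18 had groups that did not overlap. Read against the background, 7 of 35 higher is near the 16.9% of all genes, 5 of 35 lower is near the 10.3%, and 18 of 35 apart is near the 43.3%. Their median log2 fold change was -0.02. An unadjusted p below 0.05 was found for 16 of the 35. Without the filter on low values, when 21641 genes were fitted and adjusted for, the calls of PFKL, ALDOA, PKM, LDHB, SLC16A1 and PDK1 ended (limma, adjusted p = 0.051 to 0.12). The plot of fold changes sets the glycolytic steps beside the HIF targets. Of the 20 glycolytic step genes tested, 6 rose and 2 fell, with a median of 0.03. Of the 11 HIF targets tested, 1 rose and 3 fell, with a median of -0.07. The difference between the lists was not tested. Summed over all 24 glycolytic step genes, the level was 15275 ± 401 TPM with shLuc and 16795 ± 484 TPM with shHDAC1 (SD, n = 3), or 1.53% and 1.68% of the library. Summed over the 12 HIF targets, it was 198 ± 12 TPM and 161 ± 5.36 TPM. Neither sum overlapped between the groups, and neither was recomputed after median centring. The glycolytic sum is weighted to its most abundant genes. PKM went from 3471 to 4161 TPM, GAPDH from 2343 to 2919, ALDOA from 1184 to 1410 and LDHB from 792 to 1008. Other abundant genes went the other way, with LDHA from 982 to 810 TPM and PGK1 from 1369 to 1246 TPM. PKM, ALDOA and LDHB were not called after median centring. NDRG1 alone accounted for 23.3 of the 37.3 TPM by which the HIF target sum was lower.

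**Figure D1:**
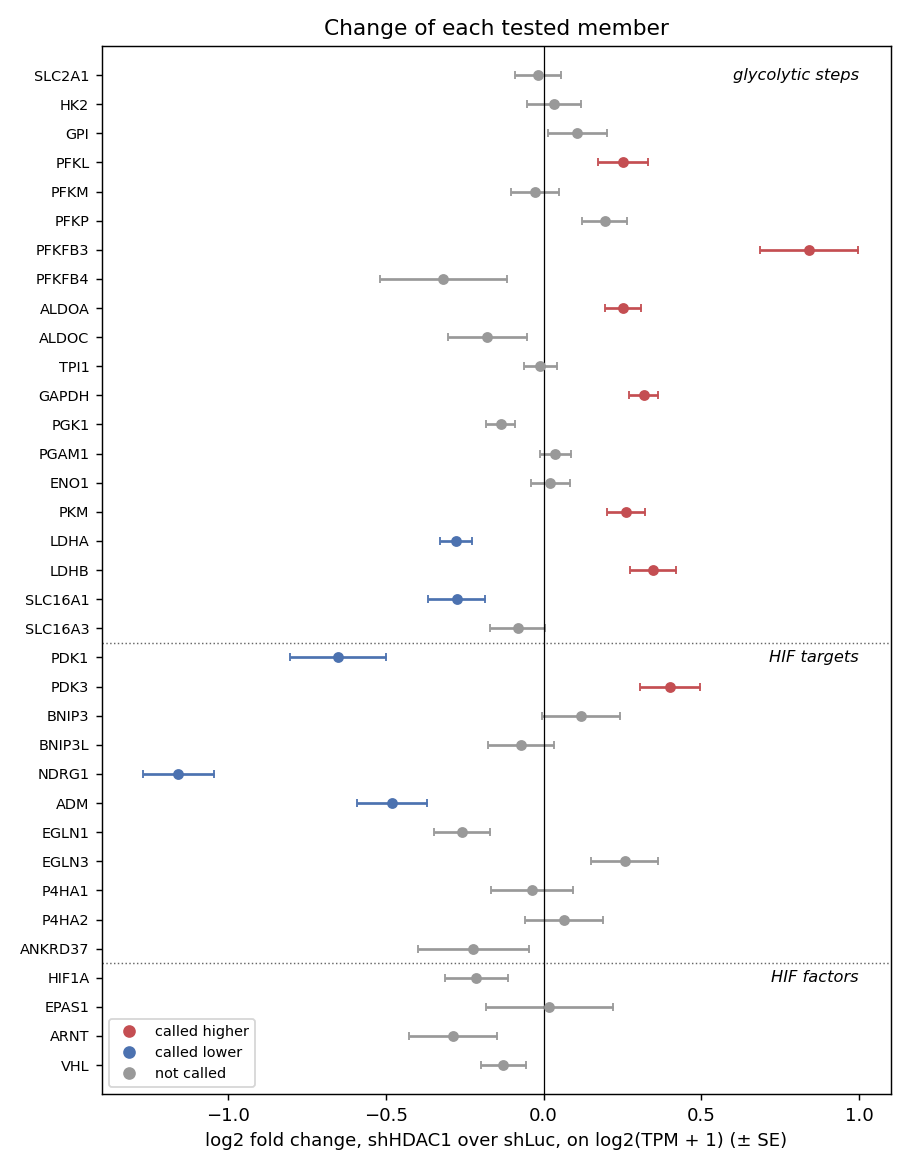
Log2 fold change of shHDAC1 over shLuc on log2(TPM + 1) for the 35 tested members (points, limma estimate; bars, SE), with called members in colour and VHL shown with the HIF factors. NDRG1 lies farthest to the left at -1.16 and PFKFB3 farthest to the right at 0.84, and PDK1 at -0.65 and ADM at -0.48 are the next lowest.

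Glucose entry and its trapping by hexokinase showed no called change. SLC2A1, the main glucose transporter GLUT1, stood at 64.3, 62.6 and 64.6 TPM with shLuc and at 67.3, 59.4 and 62.6 TPM with shHDAC1. The 2 groups overlapped, and its log2 difference was -0.02 ± 0.07 (SE; limma, adjusted p = 0.88). HK2, the inducible hexokinase that phosphorylates glucose, stood at 24.1, 26.0 and 25.6 TPM and at 26.7, 24.3 and 26.5 TPM, again with overlap (0.03 ± 0.09, limma adjusted p = 0.81). HK2 held at least 99.5% of the TPM of HK1, HK2 and HK3 in every library, since HK1 reached at most 0.12 TPM. SLC2A3, the neuronal-type transporter GLUT3, reached at most 0.13 TPM, and both genes were below the filter. Most of the SLC2A1 level (67.4%) was assigned to SLC2A1-208, a transcript annotated for nonsense-mediated decay, at 43.0 ± 1.22 and 42.6 ± 2.05 TPM, and the coding SLC2A1-203 was at 18.1 ± 1.95 and 17.1 ± 3.15 TPM.

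The next steps isomerise the sugar and commit it to glycolysis through phosphofructokinase. GPI, the isomerase, was at 383 ± 31.8 and 413 ± 47.3 TPM (SD, n = 3), with overlapping groups (log2 difference 0.11 ± 0.09, limma adjusted p = 0.42). PFKL, the liver-type phosphofructokinase subunit, stood at 162, 150.0 and 175 TPM with shLuc and at 201, 177 and 203 TPM with shHDAC1. Every shHDAC1 library was above every shLuc library, and PFKL rose by 0.25 ± 0.08 on the log2 scale (limma, adjusted p = 0.045). That call was lost without shLuc replicate 1 or 2 or shHDAC1 replicate 1 or 3 (adjusted p = 0.11, 0.13, 0.13 and 0.13) and after median centring (0.15, adjusted p = 0.18). PFKP, the platelet-type subunit, stood at 79.4, 76.3 and 85.9 TPM and at 95.3, 88.3 and 93.1 TPM. Its groups did not overlap either, but it was not called (0.19 ± 0.07, limma adjusted p = 0.073). Protein-coding transcripts alone made it a call (0.20, adjusted p = 0.049). PFKM, the muscle-type subunit, was at 189 ± 9.96 and 186 ± 15.3 TPM with overlap (-0.03 ± 0.08, adjusted p = 0.83).

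The relative levels of these subunits moved accordingly. PFKL made up 37.6% ± 0.86 of the summed TPM of the 3 subunit genes with shLuc and 41.0% ± 0.54 with shHDAC1, while PFKM made up 43.8% ± 1.16 and 39.4% ± 0.59. Over all transcripts, PFKM was thus the most abundant subunit in all 3 shLuc libraries and PFKL in all 3 shHDAC1 libraries. That order rests on noncoding transcripts, since protein-coding ones held 46.1% of the TPM of PFKL and 86.1% of that of PFKM. Over protein-coding transcripts, PFKM led in both groups, with 51.1% ± 1.24 and 47.1% ± 0.93, and PFKL held 23.5% ± 1.20 and 26.1% ± 0.37, again without overlap. The coding PFKL-201 alone was at 74.2 ± 8.16 and 90.0 ± 5.66 TPM and was not called. Over all transcripts, PFKP was the least abundant throughout, at 18.6% ± 0.42 and 19.6% ± 0.68.

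PFKFB3 gave the largest rise of any tested member. It codes the bifunctional enzyme that makes fructose 2,6-bisphosphate, the strongest activator of phosphofructokinase, and it is a known HIF target. PFKFB3 stood at 5.13, 5.61 and 5.78 TPM with shLuc and at 13.0, 8.38 and 11.0 TPM with shHDAC1. The groups were far apart, with the widest spread among the shHDAC1 libraries, and the mean was 1.96 times as high (log2 difference 0.84 ± 0.16, limma adjusted p = 0.0042). PFKFB4, its relative, stood at 3.85, 3.21 and 6.08 TPM and at 3.23, 2.74 and 3.71 TPM and was not called (-0.32 ± 0.20, adjusted p = 0.28). PFKFB2 reached at most 0.30 TPM and was below the filter. Within the summed TPM of the 4 PFKFB genes, the share of PFKFB3 went from 54.7% ± 6.49 to 75.3% ± 3.59 without overlap. The rise could not be placed on 1 transcript. PFKFB3-205 was at 1.03 ± 0.98 and 4.49 ± 2.26 TPM and PFKFB3-215, the most abundant with shLuc, at 2.83 ± 0.67 and 2.05 ± 1.63 TPM, and no transcript of PFKFB3 was called.

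At sugar cleavage and the triose steps, ALDOA and GAPDH were called and ALDOC and TPI1 were not. ALDOA, the aldolase that splits fructose 1,6-bisphosphate, stood at 1186, 1123 and 1241 TPM with shLuc and at 1440.4, 1341 and 1448 TPM with shHDAC1. All 3 shHDAC1 libraries were higher, and ALDOA rose by 0.25 ± 0.06 (log2; limma, adjusted p = 0.011), although not after median centring (0.15, adjusted p = 0.12). ALDOA took 99.3% ± 0.03 of the aldolase TPM with shLuc, and ALDOC, the brain-type form, was at 8.52 ± 0.81 and 7.42 ± 0.75 TPM (-0.18 ± 0.12, adjusted p = 0.32). An overlapping gene on the same strand, AC093512.2, at 54.9 TPM, makes a small part of the ALDOA level uncertain. TPI1, which interconverts the triose phosphates, was at 686 ± 27.8 and 680.4 ± 14.2 TPM with overlap (-0.01 ± 0.05, adjusted p = 0.91).

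GAPDH, which makes the NADH of the pathway and is often used as a reference gene, was higher with shHDAC1. It stood at 2397, 2285 and 2347 TPM with shLuc and at 2956, 2850.1 and 2951 TPM with shHDAC1. The distance between the groups was several times the spread within either, and the mean was 1.25 times as high (log2 difference 0.32 ± 0.05, limma adjusted p = 0.0012). GAPDH has 62 annotated pseudogenes, to which TPM worth 1.01% of the gene had been assigned. Among its abundant transcripts, the coding GAPDH-211 rose from 469 ± 20.5 to 633 ± 53.4 TPM and GAPDH-209, with a retained intron, from 752 ± 20.7 to 934 ± 46.7 TPM (limma over transcripts, adjusted p = 0.046 for both). GAPDH-205, at 728 ± 34.4 and 835 ± 106 TPM, and GAPDH-201, at 378 ± 44.7 and 386 ± 51.0 TPM, were not called. The coding GAPDH-203, with 2.5% of the gene's TPM, went from 8.58 ± 10.5 to 123 ± 12.8 TPM and was not called either (limma over transcripts, adjusted p = 0.054).

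Among the members, the steps from bisphosphoglycerate to phosphoenolpyruvate showed smaller differences. PGK1, the first kinase to yield ATP, stood at 1344, 1403 and 1362 TPM with shLuc and at 1249.8, 1255 and 1232 TPM with shHDAC1. Here the shHDAC1 libraries were the lower ones without overlap, but PGK1 was not called (-0.14 ± 0.05, limma adjusted p = 0.056). Median centring made it a call (-0.23, adjusted p = 0.022). The coding transcript PGK1-201 held 15% of the gene's TPM and the short processed transcripts PGK1-205 and PGK1-203 held 47.7% and 37.3%. PGAM1, the mutase, stood at 449, 448 and 442 TPM and at 459, 462 and 453 TPM, a difference that did not overlap yet came to only 0.04 ± 0.05 (adjusted p = 0.61). ENO1, the main enolase, stood at 2842, 2793 and 3107 TPM and at 3138, 2794 and 2939.7 TPM with overlap (0.02 ± 0.06, adjusted p = 0.83). ENO2, the neuronal enolase, lay between 0.40 and 1.62 TPM and was below the filter.

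**Figure D2:**
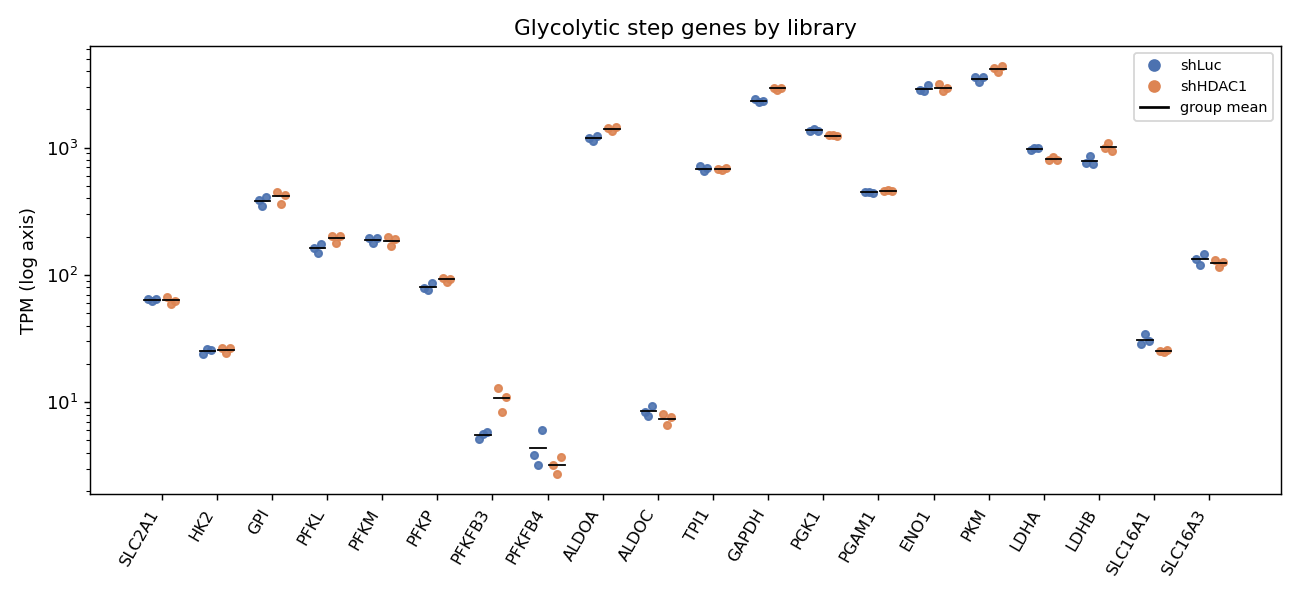
TPM of the 20 tested glycolytic step genes in each library on a log axis, with shLuc in blue, shHDAC1 in orange and the group mean as a black line. PKM, ENO1 and GAPDH lie highest, PFKFB3, PFKFB4 and ALDOC lie at about 10 TPM or below in the shLuc libraries, and LDHA and LDHB exchange their order between the groups, which they do not over protein-coding transcripts.

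PKM was the most abundant of the 40 members in both groups. It stood at 3559.6, 3274 and 3579 TPM with shLuc, rank 23 among the tested genes, and at 4209.7, 3913 and 4359 TPM with shHDAC1. The groups did not overlap, and PKM rose by 0.26 ± 0.06 (log2; limma, adjusted p = 0.011), although not after median centring (0.16, adjusted p = 0.15). Transcripts with the M2 exon printed above summed to 1143 ± 32.7 TPM with shLuc and 1434 ± 72.8 TPM with shHDAC1 (SD, n = 3), 1.26 times as much. Transcripts with the M1 exon summed to 58.1 ± 2.43 and 80.8 ± 3.29 TPM, 1.39 times as much. Both forms were therefore higher, and the M2 share of both sums was 95.2% ± 0.25 and 94.7% ± 0.45 with overlapping groups. The most abundant transcript of each form was called, PKM-202 (M2) at 1095 ± 26.6 and 1380.3 ± 70.4 TPM and PKM-220 (M1) at 52.9 ± 2.60 and 74.8 ± 4.48 TPM (limma over transcripts, adjusted p = 0.037 and 0.031), and the longer PKM-204 and PKM-201 were not. Another 15 PKM transcripts hold neither exon whole, and they carried most of the level, 2270 ± 146 and 2646 ± 162 TPM.

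The lactate dehydrogenase genes went opposite ways. LDHA codes the subunit that favours the making of lactate, and LDHB the subunit that favours its return to pyruvate. LDHA stood at 954, 1003 and 989 TPM with shLuc and at 796, 843 and 793 TPM with shHDAC1. Every shHDAC1 library was below every shLuc library, and LDHA fell by 0.28 ± 0.05 on the log2 scale (limma, adjusted p = 0.0042). LDHB stood at 764, 863 and 749.7 TPM and at 999, 1085 and 939 TPM. There the shHDAC1 libraries were the higher ones without overlap, and LDHB rose by 0.35 ± 0.07 (limma, adjusted p = 0.0082), although not after median centring (0.25, adjusted p = 0.063). Summed over all transcripts, LDHA was the more abundant subunit in each shLuc library and LDHB in each shHDAC1 library. Over protein-coding transcripts alone, LDHB was already the more abundant in each shLuc library (LDHA 644, 684 and 647 TPM, LDHB 722, 796 and 749 TPM), and the ratio went from 0.87 ± 0.02 to 0.64 ± 0.01 without overlap. Over all transcripts, the ratio of LDHA to LDHB TPM was 1.25, 1.16 and 1.32 with shLuc and 0.80, 0.78 and 0.84 with shHDAC1, and a scaling of the whole library cannot move a ratio within it. As a share of both genes, LDHA went from 55.4% ± 1.58 to 44.6% ± 1.07.

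The transcripts behind this pair differed in kind. With protein-coding transcripts alone, the LDHA difference was -0.17 and no longer called (limma, adjusted p = 0.069). The coding LDHA-203, with 56.1% of the gene's TPM, was at 531 ± 55.3 and 475 ± 42.0 TPM, and LDHA-223, annotated for nonsense-mediated decay, at 156 ± 16.9 and 96.9 ± 34.6 TPM. LDHA also has 6 annotated pseudogenes that held TPM worth 3.50% of the gene. LDHB-202, a short coding transcript, stood at 0, 0.78 and 8.49e-07 TPM with shLuc and at 46.6, 70.8 and 25.0 TPM with shHDAC1, and it was called higher (limma over transcripts, adjusted p = 0.0057). It held 2.7% of the gene's TPM over all libraries, and it passed the filter only through the 3 shHDAC1 libraries, so its direction was fixed by the filter. Its mean went from 0.26 to 47.5 TPM, while that of the whole gene went from 792 to 1008 TPM. LDHB-209, with a retained intron, was at 19.3 ± 18.0 and 64.6 ± 17.8 TPM and was not called. Part of the LDHB rise and of the ratio above thus lay in these minor transcripts. The abundant LDHB-203, at 391 ± 15.3 and 420 ± 29.9 TPM, and LDHB-201, at 236 ± 32.6 and 278 ± 26.2 TPM, were not called.

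Of the lactate carriers, SLC16A1 (MCT1), which moves lactate in either direction, stood at 28.8, 34.2 and 30.03 TPM with shLuc and at 25.3, 25.0 and 25.8 TPM with shHDAC1. The groups did not overlap, and SLC16A1 fell by 0.28 ± 0.09 (log2; limma, adjusted p = 0.049). That call was lost on leaving out any 1 of the 6 libraries, with adjusted p between 0.064 and 0.14. SLC16A3 (MCT4), the hypoxia-induced exporter, was the more abundant carrier at 132 ± 13.3 and 125 ± 8.41 TPM, with overlap (-0.08 ± 0.09, adjusted p = 0.52). An opposite-strand neighbour, CSNK1D, at 93.5 TPM, overlaps SLC16A3, and the strand setting of the counting is not given in the sources used here.

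Among the HIF targets, the pyruvate dehydrogenase kinases moved in opposite directions. These kinases switch off pyruvate dehydrogenase, which turns pyruvate into acetyl-CoA in the mitochondrion. PDK1 stood at 22.4, 19.2 and 22.8 TPM with shLuc and at 13.1, 10.7 and 16.7 TPM with shHDAC1. The groups were apart, and PDK1 fell by 0.65 ± 0.15 on the log2 scale (limma, adjusted p = 0.012), to 62.7% of the shLuc mean. PDK3 stood at 11.6, 12.1 and 11.0 TPM and at 15.7, 15.6 and 15.4 TPM. Its 3 shHDAC1 libraries were nearly equal and all higher, with a rise of 0.40 ± 0.10 (limma, adjusted p = 0.014). The PDK3 call was lost after quantile normalization (0.27, adjusted p = 0.057) and without shLuc replicate 3 (0.37, adjusted p = 0.050). Within the 4 PDK genes, the share of PDK1 went from 40.4% ± 2.09 to 24.7% ± 4.23 and that of PDK3 from 21.8% ± 1.85 to 28.8% ± 1.80, neither with overlap. PDK2, a kinase outside the 40 genes, took the largest share with shHDAC1, at 46.5% ± 2.46 against 37.8% ± 0.24.

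**Figure D3:**
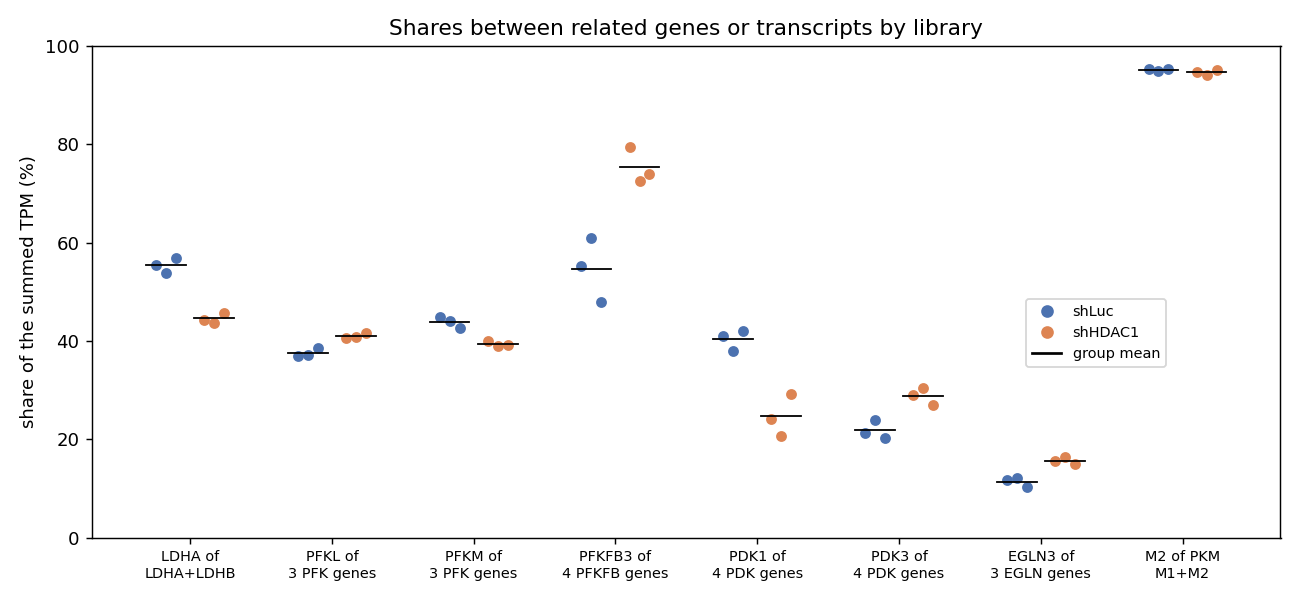
Share of the summed TPM of related genes, or of PKM transcripts with an M1 or M2 exon, in each library (%), with shLuc in blue, shHDAC1 in orange and the group mean as a black line. All transcripts of a gene are summed. LDHA and PDK1 are lower in share and PFKFB3, PDK3 and EGLN3 higher without overlap, though EGLN3 overlaps over protein-coding transcripts, while the M2 share of PKM stays near 95% in both groups.

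NDRG1 gave the largest change of the 40 genes. It codes a cytosolic protein of differentiation and stress responses and is among the most used marker transcripts of hypoxia. NDRG1 stood at 38.2, 37.1 and 47.7 TPM with shLuc and at 16.4, 18.3 and 18.5 TPM with shHDAC1. The lowest shLuc library was well above the highest shHDAC1 library, and the mean fell to 43.3% of the shLuc mean (log2 difference -1.16 ± 0.11, limma adjusted p = 1.2e-04). Its level was spread over many transcripts, of which none was called. The most abundant, the coding NDRG1-219, was at 8.25 ± 2.07 and 3.80 ± 2.48 TPM (limma over transcripts, adjusted p = 0.25), and the processed transcript NDRG1-217 at 7.04 ± 1.09 and 2.27 ± 0.88 TPM (adjusted p = 0.057).

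ADM, which codes the secreted vasodilator peptide adrenomedullin, fell as well. It stood at 21.0, 19.5 and 23.3 TPM with shLuc and at 13.3, 15.5 and 16.2 TPM with shHDAC1. The groups did not overlap (log2 difference -0.48 ± 0.11, limma adjusted p = 0.012). The coding ADM-201, with 61.1% of the gene's TPM, was at 13.7 ± 1.64 and 8.44 ± 0.89 TPM and was not called (limma over transcripts, adjusted p = 0.070).

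The oxygen-sensing hydroxylases, which are both HIF targets and brakes on HIF, were not called in the fit used here. EGLN1 (PHD2), the main one, stood at 27.2, 31.5 and 28.0 TPM with shLuc and at 23.2, 24.8 and 23.9 TPM with shHDAC1. The shHDAC1 libraries were lower without overlap (-0.26 ± 0.09, limma adjusted p = 0.060). EGLN1 was called lower with median centring (-0.36, adjusted p = 0.018) and with quantile normalization (-0.35, adjusted p = 0.021). All of that difference lay in the noncoding EGLN1-202, at 18.6 ± 1.70 and 13.6 ± 0.95 TPM, while the coding EGLN1-201 was at 10.3 ± 0.61 and 10.3 ± 0.19 TPM. EGLN3 (PHD3), strongly induced by hypoxia in many cells, stood at 7.46, 7.57 and 7.25 TPM and at 9.46, 8.97 and 8.80 TPM. It was higher without overlap but was not called (0.26 ± 0.11, adjusted p = 0.10), and SPTSSA, at 23.9 TPM, overlaps it on the same strand. Its share of the 3 EGLN genes was 11.4% ± 0.98 and 15.7% ± 0.78 without overlap, but over protein-coding transcripts 15.9% ± 2.05 and 18.5% ± 3.38 with overlap.

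The other HIF targets gave no call. BNIP3 and BNIP3L, receptors that send mitochondria to autophagy, were at 5.41 ± 0.26 and 5.97 ± 0.58 TPM and at 23.1 ± 2.94 and 21.8 ± 0.68 TPM (log2 differences 0.12 ± 0.12 and -0.07 ± 0.11). BNIP3 has 39 annotated pseudogenes whose TPM came to 18.6% of its own, so its level is uncertain. P4HA1 and P4HA2, the collagen prolyl hydroxylases, were at 10.8 ± 1.59 and 10.5 ± 0.93 TPM and at 25.1 ± 4.24 and 26.2 ± 2.22 TPM (-0.04 ± 0.13 and 0.06 ± 0.12). ANKRD37 was at 1.71 ± 0.34 and 1.32 ± 0.32 TPM (-0.22 ± 0.18). The adjusted p of these 5 genes lay between 0.38 and 0.86 by limma, and their groups overlapped. CA9, the membrane carbonic anhydrase that is silent in most cells without hypoxia or VHL loss, reached at most 0.18 TPM and was below the filter.

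**Figure D4:**
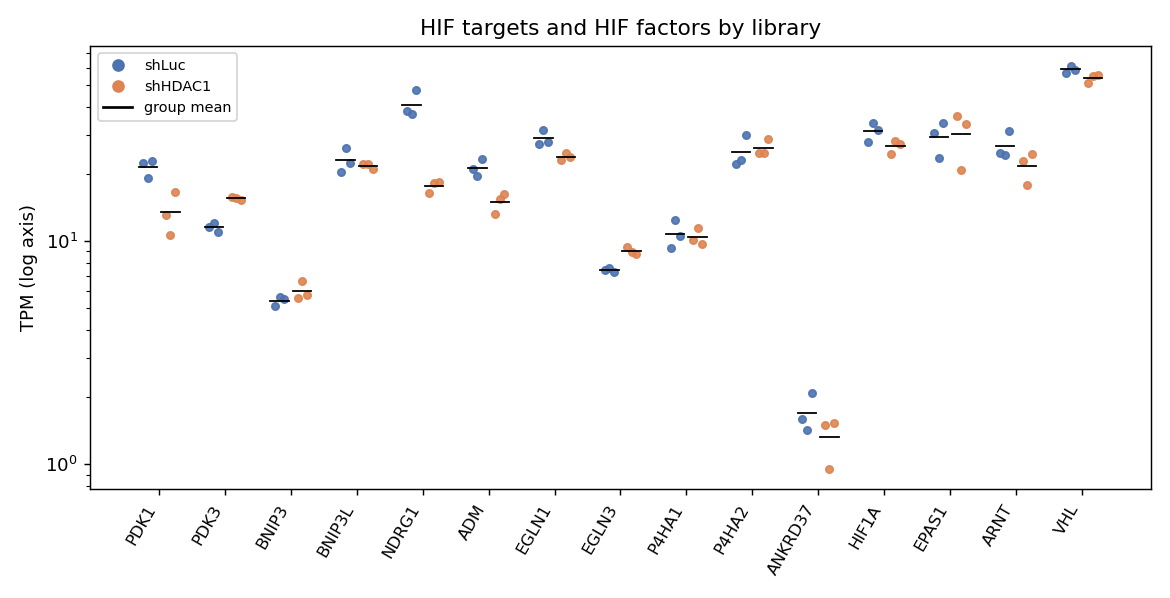
TPM of the 11 tested HIF targets and the 4 HIF factors in each library on a log axis, with shLuc in blue, shHDAC1 in orange and the group mean as a black line. NDRG1, ADM and PDK1 are lower and PDK3 is higher with shHDAC1 without overlap, and HIF1A, EPAS1 and ARNT overlap between the groups.

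The HIF factors themselves gave 0 calls of 4 by limma, and 0 had an unadjusted p below 0.05. HIF1A stood at 27.8, 33.9 and 31.6 TPM with shLuc and at 24.7, 28.0 and 27.2 TPM with shHDAC1. The groups overlapped by 1 library, and the log2 difference was -0.21 ± 0.10 (adjusted p = 0.14). It was called lower after median centring (-0.31, adjusted p = 0.049) and when protein-coding transcripts alone were summed (-0.41, adjusted p = 0.017). The coding HIF1A-202 was at 15.7 ± 3.08 and 10.7 ± 0.91 TPM, and the noncoding HIF1A-207 at 3.76 ± 0.24 and 5.68 ± 0.61 TPM. EPAS1 (HIF-2α) stood at 30.6, 23.7 and 33.8 TPM and at 36.4, 20.9 and 33.4 TPM, with the widest overlap of the group (0.02 ± 0.20, adjusted p = 0.96). ARNT, the shared partner, was at 26.7 ± 3.78 and 21.8 ± 3.53 TPM (-0.29 ± 0.14, adjusted p = 0.16). VHL, the ubiquitin ligase subunit that binds hydroxylated HIF, stood at 57.0, 61.0 and 58.8 TPM and at 51.0, 54.9 and 55.7 TPM, lower without overlap and not called (-0.13 ± 0.07, adjusted p = 0.22). HIF activity is set largely by protein stability, which RNA does not measure.

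Single transcripts of the members were tested with all 39716 transcripts that passed the same filter. Of 175 member transcripts, 7 were called higher and 0 lower by limma, against 1.83% and 1.51% of all transcripts, and 20 and 15 had an unadjusted p below 0.05. Besides the PKM, GAPDH and LDHB transcripts above, PFKM-225 and ARNT-206 were called. PFKM-225, a coding transcript with 3.3% of PFKM, stood at 2.08, 3.46 and 2.51 TPM with shLuc and at 8.73, 10.5 and 9.49 TPM with shHDAC1. ARNT-206, a short processed transcript, was at no more than 0.0026 TPM with shLuc and at 4.95, 1.93 and 3.15 TPM with shHDAC1. It passed the filter only through the shHDAC1 libraries, as LDHB-202 did, so those 2 of the 7 calls support nothing about direction. Both PFKM and ARNT were not called as a whole. The calls of single transcripts depended on the libraries and the scaling. The number of member transcripts called higher went from 7 to 0 without any 1 of the shHDAC1 libraries, to 2, 2 and 1 without shLuc replicate 1, 2 and 3, to 3 with median centring and to 1 with the replicate block.

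Neighbouring pathways were counted in the same fit, in which 16.9% of all genes were higher and 10.3% lower. No list was tested as such. Of 30 further glycolysis and sugar transport genes, 17 were tested, 2 rose and 3 fell, with a median of -0.04. PGAM5, a mitochondrial phosphatase of the mutase family and no glycolytic enzyme, went from 42.3 ± 2.26 to 74.4 ± 1.52 TPM, and SLC2A5, the fructose transporter GLUT5, from 42.6 ± 4.33 to 80.9 ± 11.0 TPM. SLC2A5 held 30.1% ± 1.66 of the TPM of 5 hexose transporter genes (SLC2A1, SLC2A3, SLC2A5, SLC2A6 and SLC2A8) with shLuc and 46.4% ± 2.06 with shHDAC1, beside the SLC2A1 level that was not called. LDHD, the D-lactate dehydrogenase, fell from 16.0 ± 1.86 to 9.96 ± 0.84 TPM, and SLC2A6, a lysosomal hexose transporter, from 16.4 ± 0.72 to 11.3 ± 1.05 TPM. All 12 pentose phosphate genes, which draw glucose 6-phosphate from glycolysis, were tested, and 5 rose and 2 fell (median 0.04). RPIA, the ribose isomerase, went from 29.8 ± 0.64 to 41.0 ± 0.91 TPM and H6PD from 3.80 ± 0.36 to 6.45 ± 0.17 TPM, while RPE, the ribulose epimerase, fell from 52.0 ± 3.12 to 35.8 ± 2.82 TPM and PRPS1 from 118 ± 5.20 to 102 ± 4.44 TPM.

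Downstream of pyruvate, 26 of 27 pyruvate and citric acid cycle genes were tested, 5 rose and 6 fell (median -0.02). MDH1, the cytosolic malate dehydrogenase that can return NAD+ to glycolysis in place of LDHA, went from 71.1 ± 6.91 to 212 ± 19.3 TPM (log2 difference 1.56 ± 0.09, limma adjusted p = 4.8e-06). That is a larger change than that of any of the 40 genes. IDH3A, a subunit of isocitrate dehydrogenase, went from 211 ± 5.67 to 266 ± 8.88 TPM. PDHB, a subunit of the pyruvate dehydrogenase that the PDK kinases switch off, fell from 129 ± 3.38 to 68.7 ± 6.65 TPM (-0.90 ± 0.08, adjusted p = 7.2e-05), and PC, pyruvate carboxylase, from 12 ± 0.97 to 6.92 ± 0.10 TPM.

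Of 42 further HIF target genes, 33 were tested, 3 rose and 4 fell (median -0.05). IGFBP3, a secreted binder of insulin-like growth factors, went from 5.57 ± 0.38 to 10.1 ± 0.81 TPM and CXCR4, the chemokine receptor that holds plasma cells in the marrow, from 74.6 ± 1.78 to 92.2 ± 1.75 TPM. TFRC, the transferrin receptor, fell from 167 ± 11.4 to 98.7 ± 12.8 TPM and CITED2, an inhibitor of HIF's coactivator binding, from 72.5 ± 3.91 to 54.7 ± 2.02 TPM. Of 16 further regulators of HIF, 14 were tested, 2 rose and 3 fell (median -0.04). SIAH2, a ubiquitin ligase that acts on EGLN3, went from 71.2 ± 3.03 to 91.4 ± 1.95 TPM and CREBBP, a coactivator, from 13.9 ± 1.01 to 21.1 ± 3.76 TPM. CUL2, the cullin of the VHL ligase, fell from 21.6 ± 3.79 to 7.80 ± 1.43 TPM (-1.36 ± 0.16, limma adjusted p = 3.4e-04), and COPS5 from 71.0 ± 0.43 to 55.6 ± 2.43 TPM. All genes named from these 5 lists, other than SLC2A1, SLC2A3 and SLC2A8, were called by limma, and their groups did not overlap.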

How the data were processed

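RNA of 3 shLuc and 3 shHDAC1 libraries of RPMI 8226 cells had been sequenced after NEBNext Ultra preparation, per the labels' protocols. Each library has a deposited table of TPM values by Ensembl transcript, per the file headers, with no reads or counts. STAR, DESeq and hg19 are named in the submitters' processing notes, while what computed the TPM, and on which annotation, no source used here gives. As TPM are shares, a rise of some genes lowers others, and depth is not known.

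Identifiers were matched to GENCODE 29 (GRCh38) without versions. Of 173259 transcripts, 159239 (91.9%) matched, in 34500 genes, and 14020 were left out. Matched TPM were 97.3% of the total with shLuc and 96.8% to 96.9% with shHDAC1. Some GENCODE 29 transcripts of members had no deposited value, and gene sums cover only those that had one. For example, values were there for 6 of 17 transcripts of ENO1, 17 of 22 of GPI and 2 of 4 of BNIP3. TPM were summed per gene and tested as log2(TPM + 1) with limma 3.58.1 (trend, R 4.3.3) over the 11857 genes that reached 1 TPM in at least 3 libraries. The p-values were adjusted by Benjamini-Hochberg over all of these, with a threshold of 0.05. Transcripts were tested in the same way. Fold changes on this scale understate those of low genes. The scripts were tested on simulated data. Tables and figures used Python 3.11.15 with pandas 2.3.3, numpy 2.4.6, scipy 1.17.1 and matplotlib 3.10.9.

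The members and lists were chosen with earlier results of these data known. Members called or with a mean of at least 100 TPM were given in most detail, and of each other list up to 2 called genes per direction with the smallest p. PDK2 is named beyond that rule for its share, and ENO3 as a further enolase. The rule for transcripts was to name the most abundant of a member, and those at 10% or more of a gene where only some were called. Not every most abundant transcript is printed, and the choice of other transcripts, and of shares over protein-coding transcripts, was made with the values in view, after seeing the data. Titles gave the groups. No label says that the replicate numbers pair the libraries, and a check of the numbers could not decide it. Alternatives changed the scaling (median centring or quantile normalization), the filter (none, or a mean of 5 TPM and above), the pseudocount (0.1 or 5), the transcripts summed (protein-coding only), the replicate block, and the libraries (each left out in turn).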

Additional observations from a re-analysis of the deposited data

How the results depend on the processing

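Of the 12 called members, GAPDH, PFKFB3, NDRG1 and ADM were called under all 14 alternatives, and none of the 12 turned in sign. Median centring gave 1336 genes higher, 2 glycolytic step genes higher and 3 lower, 1 HIF factor lower (HIF1A), 4 HIF targets lower, and 3 member transcripts higher and 1 lower. Without a filter, 2 glycolytic step genes were higher and 1 lower. A pseudocount of 5, the replicate block and protein-coding transcripts only each gave 1 glycolytic step gene lower, the first 2 without SLC16A1 (adjusted p = 0.051 and 0.062) and the last without LDHA (0.069). A pseudocount of 5 gave 1 member transcript lower, quantile normalization 0 HIF targets higher and 4 lower, and protein-coding transcripts only 1 HIF factor lower and 7 glycolytic step genes higher, with PFKP added. Leaving out 1 library gave 1295 to 1981 genes higher and 867 to 1076 lower, 1 glycolytic step gene lower each time, 0 to 1 HIF targets higher, and 0 to 2 member transcripts higher and 0 to 1 lower. The lowest count of higher genes, 1295, came without shHDAC1 replicate 1. No filter and a mean of at least 5 TPM, quantile normalization and coding sums were tried on genes only. The cause of these shifts was not tested.

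The signs of 12 members that were not called turned. Median centring gave log2 differences of -0.066 for HK2, -0.060 for PGAM1, -0.077 for ENO1, -0.034 for P4HA2 and -0.080 for EPAS1. Quantile normalization gave -0.059 for HK2, 0.074 for TPI1, -0.018 for ENO1, -0.047 for BNIP3, -0.028 for P4HA2 and -0.064 for EPAS1. Protein-coding sums gave 0.011 for PFKM, 0.0035 for EGLN1 and -0.14 for EPAS1. Leaving out 1 library at a time gave -0.065 to 0.024 for SLC2A1, -0.073 to 0.042 for PFKM, -0.042 to 0.017 for TPI1, -0.023 to 0.068 for ENO1, -0.15 to 0.021 for BNIP3L, -0.13 to 0.065 for P4HA1, -0.013 to 0.19 for P4HA2 and -0.13 to 0.26 for EPAS1.

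Libraries with the same replicate number deviated with correlations of -0.10, 0.18 and 0.03, and not every library correlated best with its own number. With 3 libraries per group, these values cannot decide whether the libraries were paired, and the main fit used no pairing. The replicate block gave 1979 genes higher and 1264 lower, 6 glycolytic step genes higher and 1 lower, and 1 member transcript higher. Depth is unknown, so counting error at low TPM could not be given.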
